A study of Mus musculus with 10 samples.

Results

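Olfml3, Sparc, Cst3, Crybb1, Slco2b1, Slc2a5 and Sall3 are genes expressed by homeostatic microglia, the resident macrophages of the undisturbed brain, and they were described here by the H3K4me3 at their promoters and by the contacts of these promoters in chromatin. The 7 genes were chosen by name out of 20720 autosomal protein-coding genes. The rule itself uses no measured value, but the choice was made with earlier results of these data known. H3K4me3 was read from peaks within 1 kb of a transcription start site (TSS) in each replicate, and contacts were read from interactions in which a bin of 5 kb held a TSS. A gene counted as marked when both replicates had such a peak. The list was labeled as secreted and matrix genes, which fits it in part. Olfml3, Sparc and Cst3 encode secreted proteins, Crybb1 encodes a crystallin, Slco2b1 and Slc2a5 encode membrane transporters, and Sall3 encodes a nuclear zinc-finger protein.

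The series compares the chromatin of mouse microglia with and without an enhancer of Sall1, a transcription factor that maintains microglial identity. Its 10 samples are 2 H3K4me3 ChIP-seq libraries, 2 input libraries and 2 PLAC-seq libraries from wild-type mice, and 4 Hi-C libraries, which were not analysed here. All samples used here were whole microglia sorted from the brain as CD45+ CD11b+ CX3CR1+ cells of the strain C57/Bl6, with genotype wild type. The labels give neither an age nor a treatment. They do not say whether the replicates came from separate animals, so the spread between them may be technical. As every library used here is wild type, no value below bears on the loss of the Sall1 enhancer.

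H3K4me3 is the trimethylation of lysine 4 on histone H3, which lies on nucleosomes next to the start sites of active and poised genes. It is usually depleted at the TSS itself, where nucleosomes are displaced, and it often extends into the first intron of genes that mark the identity of a cell. PLAC-seq combines proximity ligation with an antibody, here against H3K4me3, so that it enriches contacts made by marked promoters, among them contacts with distal enhancers. Microglia rely on TGF-beta signaling and SALL1 to keep their homeostatic state, and the matrix proteins and transporters of this state set them apart from other macrophages.

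H3K4me3 peaks numbered 27845 in replicate 1, at a depth of 12.8 M tags, and 26574 in replicate 2, at 13.4 M. The value of a peak is the tags it holds for every 10 M of its library. Of all autosomal protein-coding genes, 59.4% were marked, with a median value of 220.4 and quartiles of 126.5 and 282.4. Both PLAC-seq libraries together gave 1 list of 26689 interactions, so interactions have no replicates and their total depth is unknown. At least 1 interaction was found for 24.7% of all these genes and for 37.8% of the marked ones. All 8 microglial markers were marked, against 1 of 8 markers of blood leukocytes, 2 of 7 of border macrophages, 2 of 8 of oligodendrocytes, 3 of 8 of neurons, 3 of 8 of endothelial and mural cells and 5 of 9 of astrocytes. Median values of the marked genes alone were 231.2 for microglia and between 11.73 and 100.9 for the other lists. The 100.9 came from the 2 marked oligodendrocyte genes, of which Mbp had a mean of 186.6, the highest of the markers of other cells. The part of other cells in the values below was not tested.

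Of the 7 genes, 6 were marked (85.7%, against the 59.4% of all genes), and the levels of the marked genes spanned the whole range, from the 3.23rd to the 91.2nd percentile of marked genes. Cst3, which encodes cystatin C, a secreted inhibitor of cysteine proteases, was the highest, with values of 343.6 and 337.9 in replicates 1 and 2. Sall3, a relative of Sall1, had 254.0 and 246.2. Sparc, which encodes a secreted glycoprotein that binds collagen and calcium, had 201.8 and 244.7. These 3 genes lay above or around the median of marked genes. Slco2b1, a transporter of organic anions, had 163.6 and 158.1. Olfml3, which encodes a secreted protein with an olfactomedin domain, had 132.4 and 175.3. Crybb1, a lens crystallin whose transcript is also high in microglia, had only 16.4 and 9.7. Slc2a5, the transporter of fructose, had 6.23 in replicate 1 and no peak within 1 kb in replicate 2, so it was not marked. In the order of levels, the replicates of neighbors overlapped only for Slco2b1 and Olfml3, while Sall3 and Sparc were separated by no more than the step from 244.7 to 246.2.

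**Figure D1:**
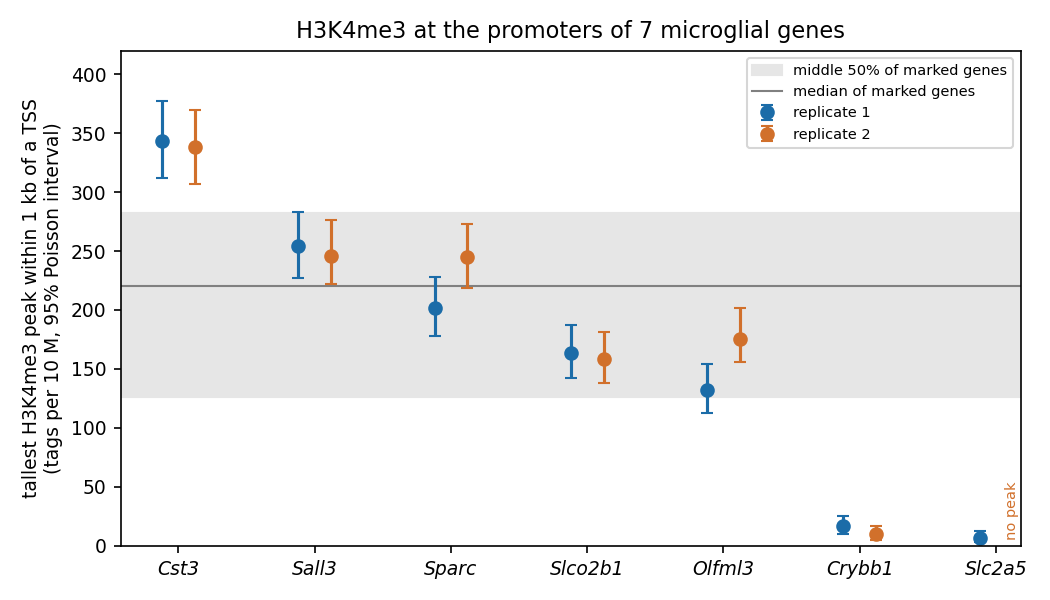
H3K4me3 at 7 microglial genes, as the value in tags per 10 M tags (vertical axis) of the tallest peak within 1 kb of a TSS. Points are the replicates, bars are exact 95% Poisson intervals that cover counting error only, the gray band spans the quartiles of marked genes (126.5 to 282.4) and the line is their median (220.4). Cst3 lies above the band in both replicates, and Crybb1 and Slc2a5 lie far below it.

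The replicates were close together for 3 of the 6 marked genes. The mean and SD (n = 2) were 340.8 ± 4.03 for Cst3, 250.1 ± 5.52 for Sall3 and 160.8 ± 3.89 for Slco2b1. Spread was wider for Sparc, at 223.2 ± 30.3, and for Olfml3, at 153.9 ± 30.3. Crybb1 had 13.05 ± 4.74, from 21 and 13 tags. Tag counts of the replicates were compared for each marked gene with a two-sided exact binomial test given the depths, adjusted by the Benjamini-Hochberg method over 12697 genes of the autosomes and the X chromosome. By this test 12.4% of the genes differed between the replicates, which are 2 libraries of 1 condition. The peaks compared need not lie at the same place, so this share mixes differences between the libraries with the choice of peaks. Of the 6 marked genes 1 differed, Olfml3, with 170 and 239 tags, a log2 ratio of 0.40 for replicate 2 over replicate 1 and an adjusted p = 0.0316 in the exact test. The tallest peak was taken in each replicate apart, and at Olfml3, Sparc and Sall3 the peaks so compared lie at different places that do not overlap, so the test there sets the tallest peaks of the gene side by side and not the tags of 1 stretch. Sparc had a log2 ratio of 0.28 with adjusted p = 0.106 in the exact test. For Cst3, Sall3, Slco2b1 and Crybb1 the adjusted p of the exact test lay between 0.392 and 0.925. When all peaks within 1 kb were summed, Olfml3 had values of 253.9 and 297.6 and an adjusted p of 0.0858 in the exact test, so its call is lost with the sum.

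The sequences at these promoters are given below because the mark of each gene is read relative to its start, and because they differ in their content of CpG, the dinucleotide that most marked promoters are rich in. Each is the RefSeq window of 250 bases before and 50 after the start in GRCm38.p6, written 5′ to 3′ on the strand of the gene. Of the 7 genes, 6 had an entry, and all 6 were equal to the genome at their coordinates. For Slco2b1, with 3 RefSeq starts, the one nearest to the peak is shown. Capitals mark matches on either strand to 3 motifs. The first, GGGCGG, is known to bind Sp and Kruppel-like factors. The second, CAGAC, is known to bind SMAD proteins, the transcription factors of TGF-beta signaling. The last, TATAAA, is the TATA box.
Olfml3 promoter, chr3:103737952-103738251, minus strand: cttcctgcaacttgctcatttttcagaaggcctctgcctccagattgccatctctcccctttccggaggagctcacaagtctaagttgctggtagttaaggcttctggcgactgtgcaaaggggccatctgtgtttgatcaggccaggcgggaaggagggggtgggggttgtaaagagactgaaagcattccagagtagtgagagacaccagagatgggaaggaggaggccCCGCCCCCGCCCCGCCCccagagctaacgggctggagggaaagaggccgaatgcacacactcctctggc
Sparc promoter, chr11:55420031-55420330, minus strand: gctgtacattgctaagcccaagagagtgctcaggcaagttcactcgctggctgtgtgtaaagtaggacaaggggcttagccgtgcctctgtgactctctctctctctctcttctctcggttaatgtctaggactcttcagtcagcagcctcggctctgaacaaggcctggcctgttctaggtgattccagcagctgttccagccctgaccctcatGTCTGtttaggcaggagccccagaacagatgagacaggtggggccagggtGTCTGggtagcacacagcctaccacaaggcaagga
Cst3 promoter, chr2:148875463-148875762, minus strand: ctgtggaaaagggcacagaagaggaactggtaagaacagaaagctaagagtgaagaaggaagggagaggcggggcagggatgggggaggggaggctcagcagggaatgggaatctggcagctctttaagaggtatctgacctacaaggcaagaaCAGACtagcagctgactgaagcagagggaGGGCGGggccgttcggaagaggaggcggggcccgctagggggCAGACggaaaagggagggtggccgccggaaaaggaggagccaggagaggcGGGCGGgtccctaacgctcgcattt
Crybb1 promoter, chr5:112255570-112255869, plus strand: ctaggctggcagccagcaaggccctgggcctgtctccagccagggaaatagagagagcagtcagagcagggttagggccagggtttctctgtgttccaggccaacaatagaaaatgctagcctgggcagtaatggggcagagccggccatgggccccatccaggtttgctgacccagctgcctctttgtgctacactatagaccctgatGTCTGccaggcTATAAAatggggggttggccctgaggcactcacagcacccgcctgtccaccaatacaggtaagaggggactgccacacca
Slco2b1 promoter, chr7:99706793-99707092, minus strand: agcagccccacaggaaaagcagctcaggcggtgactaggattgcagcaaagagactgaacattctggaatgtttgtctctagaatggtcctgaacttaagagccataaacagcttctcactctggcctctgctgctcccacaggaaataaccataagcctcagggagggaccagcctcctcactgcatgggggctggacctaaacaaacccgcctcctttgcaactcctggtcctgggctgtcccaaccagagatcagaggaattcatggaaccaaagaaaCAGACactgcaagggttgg

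Olfml3 held 3 matches to GGGCGG that follow each other just before its start, the first at position -19 counted from the start. Cst3 held 2 matches to GGGCGG, at -67 and 26, and 2 to CAGAC, at -96 and -25. Sparc held 2 matches to CAGAC, at -35 and 16. Slco2b1 held 1 match to CAGAC, at 32. The promoter of Slc2a5, not printed, held 3 matches to GGGCGG and 5 to CAGAC. Crybb1 was the only one of the 6 with TATAAA, at -30, the place of a TATA box, beside 1 match to CAGAC at -41. In all 32851 RefSeq promoters, CAGAC was found in 49.6%, GGGCGG in 35.7% and TATAAA in 13.6%, so most of these matches are common. Matches were also sought, on both strands, for AGGAAGT (PU.1 and other ETS factors), TGANTCA (AP-1), TTGCNNAA (C/EBP) and TATTTAT (AT-rich motifs of MEF2 or SALL type), which occur in 9.35%, 7.81%, 10.8% and 5.60% of promoters, and none of the 6 promoters held any of them. A match is a description of the letters and not a binding site.

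Most of these promoters were poor in CpG. In the same window of 300 bases around the GENCODE TSS, taking the TSS with the most CpG of each gene, Crybb1 had 3 CpG, Slco2b1 had 5, Cst3 had 7, and Olfml3 and Sparc had 8, against a median of 16 over all autosomal protein-coding genes. Slc2a5 had 15 and Sall3 had 52. Of the 2686 genes with 5 to 9 CpG, 30.6% were marked, with a median value of 117.1, whereas 92.9% were marked among genes with 20 or more. Cst3, Sparc, Olfml3 and Slco2b1 fall into the class of 5 to 9 CpG and were all marked, with mean values of 153.9 to 340.8 that lie above the median of the class. The TSS with the most CpG need not be the one with the peak. Slco2b1 and Sparc each have at least 1 annotated TSS without a peak within 1 kb. Crybb1 falls into the class of 0 to 4 CpG, of which 6.21% were marked, with a median of 72.17. Slc2a5, with more CpG than these 5 genes, was the one without the mark within 1 kb of its start. The count depends on the start used. The RefSeq windows of Cst3, Sparc and Slco2b1 printed above have starts 64, 182 and 319 bp from the reference TSS. They hold 13, 4 and 2 CpG. The classes use the highest count over the GENCODE starts of each gene, so these single windows do not place the genes in them. The 13 of Cst3 would lie in the range of 10 to 19 CpG, a class of which 74.8% were marked with a median of 194.6. The start of the Sparc window, 55420080, is also an annotated TSS of Sparc, so its 4 CpG are not the highest count of that gene. Olfml3 has 8 CpG in both. This comparison is a description of chosen genes and was not tested.

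The position of the peaks differed between the genes. The tallest peak was centered downstream of its nearest TSS for 5 of the 6 marked genes in each replicate, as it was for about 80% of all marked genes (79.8% in replicate 2). At Cst3 (chromosome 2, 148871722 to 148875692, minus strand) the tallest peak was centered 0.435 and 0.394 kb downstream of the TSS. A row of further peaks ran through the gene, 3 in each replicate with values from 96.6 to 271.1 at 1.176 to 3.058 kb, so peaks lay along most of this short gene. Replicate 1 had 5 peaks within 5 kb of the TSS and replicate 2 had 4, numbers reached by 2.35% and 4.95% of marked genes. At Sparc (chromosome 11, 55394500 to 55423183, minus strand) all peaks lay in introns and downstream of the annotated TSS used as its reference, the tallest at 0.564 and 0.192 kb. The next peaks, at 1.205 and 1.275 kb, had values of 147.2 and 165.6, and those at 1.834 and 1.877 kb had 109.8 and 156.6. Of the 5 annotated TSSs of Sparc, the one farthest upstream, at 55423183, had no peak within 1 kb in either replicate. The mark of Cst3 and Sparc thus began close to the TSS and ran into the gene on 1 side only.

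Olfml3 (chromosome 3, 103722222 to 103738001, minus strand) and Sall3 instead had peaks on both sides of the TSS. At Olfml3 the upstream peak was centered at -0.149 and -0.279 kb relative to the TSS, with values of 121.5 and 122.3. The downstream peak lay at 0.956 kb in replicate 1, in a coding exon, and at 0.4 kb in replicate 2, in an intron. The downstream peaks of the replicates do not overlap, and the upstream values were nearly equal. The second annotated TSS of Olfml3, at 103732553, had no peak within 1 kb. At Sall3 the upstream peak lay at -0.504 and -0.539 kb with values of 176.1 and 218.6, and the downstream peak lay in an intron at 0.35 and 0.783 kb. Summing the peaks within 1 kb gave Sall3 the highest mean of the marked genes, 447.4, whereas Cst3, with 1 peak within 1 kb, kept 340.8. This order depends on the limit of 1 kb. The next peaks of Cst3, with values of 271.1 and 229.7, had edges at 1084 and 1150 bp from the TSS. Beyond 1 kb Sall3 had only a peak of 58.2, in replicate 2.

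At Slco2b1 (chromosome 7, 99657804 to 99711340, minus strand) only the middle one of 3 annotated TSSs, at 99707161, had peaks within 1 kb. At the upstream TSS, at 99711340, the nearest peak was 4766 bp away in replicate 1 and 2578 bp away in replicate 2, and at the downstream TSS, at 99695809, it was 6577 and 7016 bp away. The tallest peak was centered at the same place in both replicates, 0.679 and 0.678 kb downstream of the middle TSS. Peaks of falling value followed in the intron, in replicate 2 with 110.4 at 1.649 kb, 53.7 at 2.435 kb and 42.5 at 3.243 kb. Replicate 2 had 6 peaks within 5 kb, a number reached by 0.788% of marked genes, and replicate 1 had 3.

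**Figure D2:**
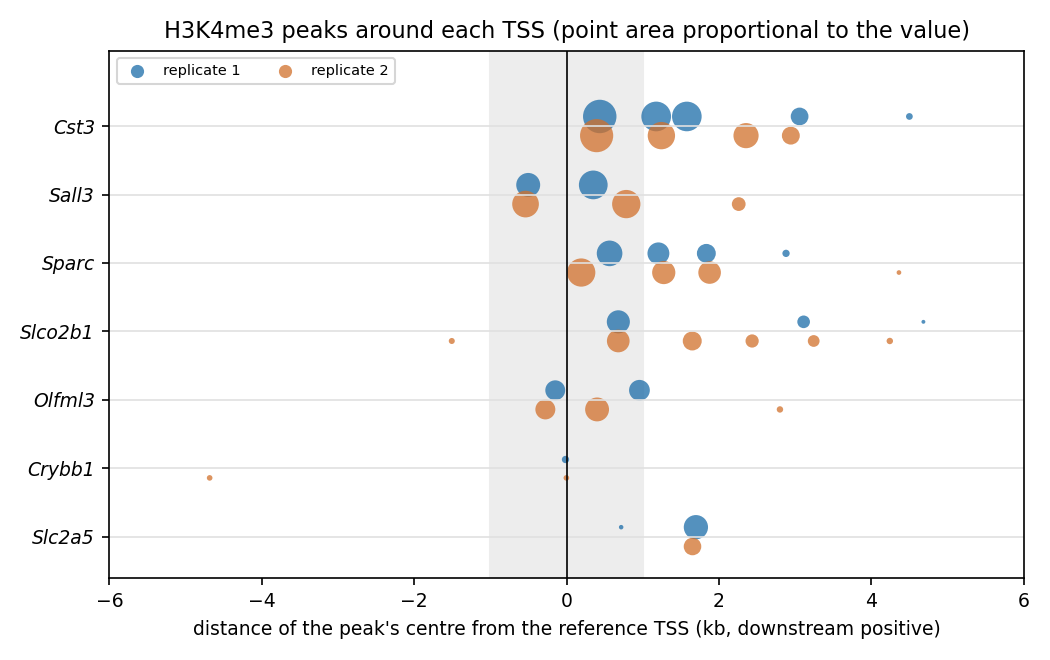
H3K4me3 peaks within 5 kb of a TSS of each gene, at the distance of the peak's centre from the reference TSS (horizontal axis, kb, downstream positive). Each point is 1 peak of 1 replicate, its area is proportional to the value, and the gray band spans the 1 kb on each side of the TSS in which a peak counts. The tall peak of Slc2a5 lies just outside the band, at 1.697 and 1.644 kb.

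Slc2a5 (chromosome 4, 150119283 to 150144169, plus strand) had little mark at its annotated TSS and a tall peak beyond it. Within 1 kb, replicate 1 had 1 peak of 8 tags, in a UTR exon. In the intron that follows, a peak with a value of 180.7 in replicate 1 and 94.7 in replicate 2 was centered 1.697 and 1.644 kb downstream of the TSS. Its exact 95% Poisson intervals, 158 to 206 and 79.0 to 113, do not overlap. With a window of 2 kb, all 7 genes were marked. The bases that the peak shares between the replicates are given because they carry the mark that the promoter of the gene lacks, and because the annotation used here has no TSS of the gene beside them. The capitals are TATAAA read on the minus strand, the only match to the 7 motifs among these 134 bases, which hold 4 CpG.
Slc2a5 intronic peak, chr4:150120888-150121021, plus strand: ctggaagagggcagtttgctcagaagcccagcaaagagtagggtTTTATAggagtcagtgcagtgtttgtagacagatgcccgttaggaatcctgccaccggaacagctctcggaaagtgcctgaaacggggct

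Crybb1 (chromosome 5, 112255815 to 112269585, plus strand) was the only gene whose peak covered a TSS, in both replicates, with its centre at -0.026 and -0.003 kb. Its tags were few, and the exact 95% Poisson intervals of its values, 10.1 to 25.0 and 5.16 to 16.6, overlap. The nearest coding neighbor is Cryba4, also a crystallin gene, with its TSS at 3.30 kb. Cryba4 had a peak of 9.7 in replicate 2 and none in replicate 1. Crybb1 was thus marked at a low value, while Cryba4 was not marked. A site without a called peak has no listed value.

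Of the 7 genes 4 had interactions, 28 in all, against the 24.7% of all genes and 37.8% of marked genes with at least 1. Olfml3 and Sparc had 12 each, a number reached by 1.5% of marked genes. With at least 20 read pairs Olfml3 kept 3 and Sparc 11, with the false discovery rate limited to 0.0001 they kept 7 and 6, and with 1 interaction per cluster each kept 1. Sparc kept 1 although its interaction at 230 kb belongs to another cluster than its others. Slco2b1 had 3, a number reached by 18.1%, and Sall3 had 1. None was called for Cst3, Crybb1 and Slc2a5. An interaction that was not called is not shown to be absent, since calling depends on the depth and on the H3K4me3 peaks used as anchors. The number of interactions did not follow the order of H3K4me3 in these genes, as Cst3, with the highest value, had none and Olfml3, at the 30.2nd percentile of marked genes, had 12.

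**Figure D3:**
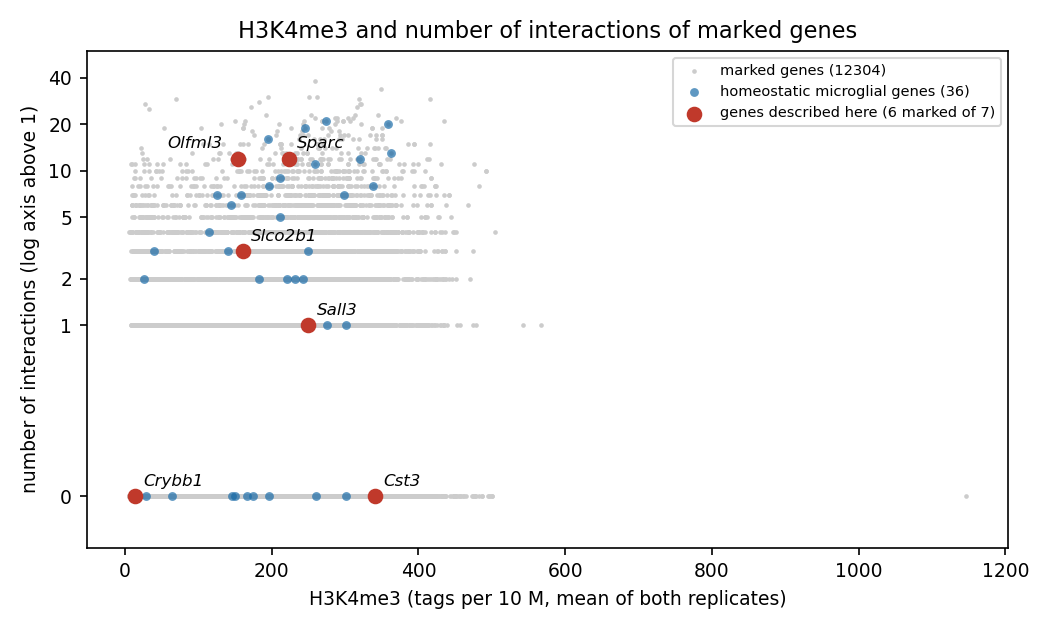
H3K4me3 (horizontal axis, tags per 10 M tags, mean of both replicates) and number of interactions (vertical axis, log scale above 1) of 12304 marked autosomal genes in gray, 36 other homeostatic microglial genes in blue and the marked genes described here in red. Olfml3 and Sparc lie at 12 interactions, and Cst3 and Crybb1 lie at 0 at opposite ends of the H3K4me3 range.

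The 12 interactions of Olfml3 joined its promoter to 1 distant region. All started at the bin chr3:103735001-103740000, and they ended in 12 bins between 103365001 and 103440000 in mm10, a region of 75 kb that lies 300 to 370 kb beyond the promoter in the direction of transcription. Together they held 198 read pairs against 32.6 expected, a ratio of 6.08 (exact 95% Poisson interval 5.26 to 6.98, counting error only). The sum holds called interactions only, each with a ratio of at least 2.00, and leaves out uncalled bins of the region. The pooled ratio and its interval are thus high by selection. The ratio peaked inside the region, with 30 pairs against 2.88 expected at 345 kb (ratio 10.4, interval 7.03 to 14.9, false discovery rate 1.89e-17). It was 7.87, 7.88 and 8.17 in the neighboring bins at 355, 350 and 340 kb, and fell to 4.77 and 4.30 at the outer ends. Of all 820 interactions at 300 to 370 kb, the median ratio was 5.14 and the 90th percentile was 7.85, and 2.44% had a ratio as high as the highest of Olfml3. Of the 12 interactions of Olfml3, 7 lay below that median, with ratios of 4.30 to 5.06, and 5 lay above it.

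The region that Olfml3 contacts held no coding TSS and no H3K4me3 peak in either replicate, and apart from 2 small RNA genes, Gm25009 and Gm25869, no gene of the annotation overlapped it. None of its 12 bins had an interaction with another bin. The contacts passed over Syt6, whose promoter lies between, at 163 kb from Olfml3, and carried H3K4me3 of 60.8 and 82.8 but no interaction. On the far side the nearest coding promoter was that of Trim33, at 85.1 kb from the region, with H3K4me3 of 285.1 and 302.8 and 1 interaction. On the near side Hipk1, at 53.1 kb from Olfml3, had 275.8 and 261.8 and no interaction. The bin of Olfml3 also holds the TSS of Gm10964, at 1.36 kb, which had a peak within 1 kb in replicate 2 only (122.3). That peak is the upstream peak of Olfml3, and bins of 5 kb cannot tell the contacts of these promoters apart. Syt6, Trim33 and Hipk1 were looked up after the region was seen.

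Sparc had contacts of another kind, short and around its own gene. From its 2 TSS bins, 7 interactions led to 5 bins at 10 to 25 kb inside or at the end of its own gene, with 386 read pairs against 167 expected (ratio 2.32, exact 95% Poisson interval 2.09 to 2.56). A further 4 led to 3 bins at 15 to 30 kb upstream, with 187 pairs against 76.4 (ratio 2.45, interval 2.11 to 2.82). One of these bins overlaps Atox1, a copper chaperone gene, but not its TSS. The highest ratio of these 11 was 2.76, which 16.4% of all interactions at 10 to 30 kb reached, and the median at that distance was 2.33. Both pooled ratios hold called interactions only, each with a ratio of at least 2.00, so they and their intervals are high by selection. The last interaction spanned 230 kb to the TSS bin of Slc36a2, an amino acid transporter gene, with 12 pairs against 3.52 (ratio 3.41, interval 1.76 to 5.96, false discovery rate 0.00951). The median ratio at 230 kb was 4.65, and Slc36a2 had no H3K4me3 peak within 1 kb of a TSS in either replicate. Of the 9 partner bins of Sparc, 7 had no H3K4me3 peak, and the 2 others had a value of 8.57 or 9.7 in 1 replicate.

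Slco2b1 had 3 interactions with ratios of 2.01 to 2.68. The strongest by false discovery rate joined 2 of its own TSS bins at 10 kb, the marked middle TSS and the unmarked downstream TSS, with 72 pairs against 34.3 (ratio 2.10, false discovery rate 4.00e-06). A further one led 20 kb into the gene, with 34 pairs against 16.9. The last led 75 kb upstream to a bin that overlaps F730035P03Rik, with 22 pairs against 8.20 (ratio 2.68, exact 95% Poisson interval 1.68 to 4.06). The bin next to the TSS bin, where its H3K4me3 runs into the intron, had 7 more interactions, at 10 to 95 kb and with ratios of 2.07 to 3.31. With neighboring bins included, Slco2b1 had 10 interactions.

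Sall3 (chromosome 18, 80966376 to 80986771, minus strand) had 1 interaction, with the bin from 81045001 to 81050000 at 60 kb upstream, with 31 pairs against 12.2 (ratio 2.54, exact 95% Poisson interval 1.72 to 3.60, false discovery rate 1.53e-04). Both bins next to the TSS bin contacted the same upstream bin, with ratios of 3.13 and 2.68. Unlike the partner bins of Olfml3, this bin carried H3K4me3 in both replicates, with values of 39.0 and 55.9. It overlaps AC125210.2, holds no coding TSS and had 5 other interactions, among them those just given for the bins next to the TSS bin. The median ratio of all interactions at 60 to 75 kb was 3.21, above that of Sall3.

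**Figure D4:**
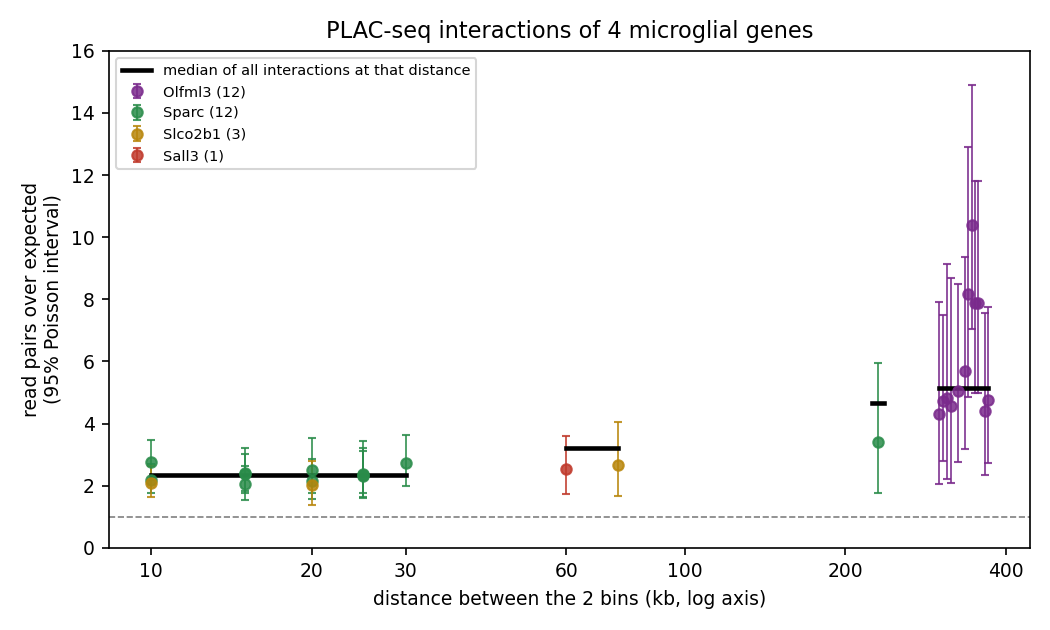
Ratio of read pairs to the expected number (vertical axis) of each of the 28 interactions against the distance of its 2 bins (horizontal axis, kb, log scale). Points are interactions of both PLAC-seq libraries together, bars are exact 95% Poisson intervals, the black lines are medians of all interactions at 10 to 30, 60 to 75, 230 and 300 to 370 kb, and the dashed line is a ratio of 1. The points of Olfml3 at 340 to 355 kb rise above the line at their distance, while those of Sparc at 10 to 30 kb lie around theirs.

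No interaction was called for the TSS bins of Cst3, Crybb1 and Slc2a5, but their surroundings differed. At Crybb1, 11 interactions spanned the TSS and 4 involved the bins on both sides of its own. The bin in its gene body contacted the promoter of Tpst2 at 15 kb, with 43 pairs against 18.5 (ratio 2.32), the bin of Hps4 and Srrd at 80 kb, with 15 pairs against 4.99 (ratio 3.01), and the next bin at 85 kb, with 20 pairs against 4.71 (ratio 4.24). The bin of Cryba4 contacted that of Hps4 and Srrd as well, with 18 pairs against 4.61 (ratio 3.90). Tpst2 had H3K4me3 of 237.6 and 265.5, and Hps4 and Srrd, which share their peak, had 169.1 and 170.8. At Cst3, 8 interactions spanned the TSS and the nearest bin with an interaction was 13.1 kb away. At Slc2a5 none spanned the TSS and the nearest was 16.8 kb away. Tpst2, Hps4, Srrd and Cryba4 were looked up after these interactions were seen.

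Within their gene families, the 7 genes held different places. Olfml3 had the highest H3K4me3 and the most interactions of 10 olfactomedin genes, of which 5 were marked. Olfml2b was next in H3K4me3 with 84.1 and 137.2, so that its replicate 2 lies above replicate 1 of Olfml3 and the replicates of both genes overlap. Olfm1 and Olfml2a were next in interactions, with 5 each. Sparc had 223.2 on average, while the other 4 marked genes of the 8 in its family had 11.73 to 15.20. Sparc also had the most interactions of its family, ahead of Spock1 with 2. Cst3 was the highest of 13 cystatin genes, ahead of Cstb, an intracellular inhibitor, with 221.3 and 266.3, and no gene of the family had an interaction. Sall3 had H3K4me3 like that of Sall1, with 244.6 and 246.9, but 1 interaction against 19 for Sall1. The replicates of Sall3 and Sall1 overlap, so they do not differ beyond their spread.

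The other 3 genes were not at the top of their families. Crybb1 was 1 of 3 marked genes of 11 listed genes of the beta and gamma crystallin family. It lay far below Crybg3, a related gene with a wide tissue range, with 363.8 and 396.8, and Crybg1, with 217.4 and 244.7. Outside the Crybg genes it was the only marked gene of this list, so its lower place rests on them. In this family Cryba4 and Crybb3 had 1 interaction each. Slco2b1 was second to Slco4a1, with 168.3 and 188.7 and 4 interactions, among 14 genes of which 5 were marked. Slc2a5 was 1 of 3 unmarked genes of 12 listed genes of the Slc2 transporter family. Slc2a8 was the highest of these with 265.7 and 305.1, and Slc2a3, a glucose transporter, had the most interactions, 3, and values of 144.1 and 125.3. Olfml2b, Olfm1, Olfml2a, Spock1, Cstb and Crybg1 were named after their values were seen, as the next in their families.

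**Figure D5:**
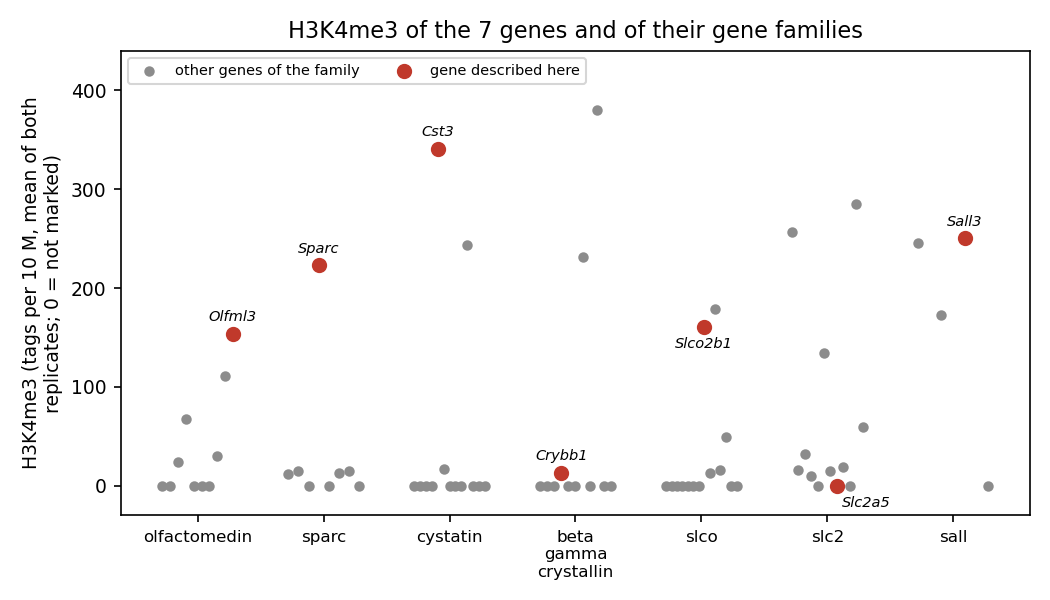
H3K4me3 (vertical axis, tags per 10 M tags, mean of both replicates, 0 for genes that were not marked) of the genes of 7 families, with 1 point per gene and the gene described here in red. Olfml3, Sparc, Cst3 and Sall3 are the highest of their families, and Crybb1, Slco2b1 and Slc2a5 are not.

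Set beside 36 other homeostatic microglial genes, which were all marked and had a median value of 211.5, the 6 marked genes had a median of 192.1. Of the 36, 27 had an interaction, with a median of 3 per gene. Bin1, Itgb5 and Mertk had the highest H3K4me3 of these, with means of 363.1, 358.0 and 338.6, and Cst3 fell between the last of them and Itgb5. Itgb5 had 20 interactions and Sall1 had 19. From the microglia signature of the study, 29 other genes were listed here as coding for secreted or matrix proteins, a grouping that the study does not give. Of these 29 genes, 24 were marked (82.8%). The marked ones had a median of 83.53, and 14 of the 29 had an interaction. Clcf1, a cytokine gene, had 391.0 on average, Golm1 had 300.8 and Serpine2, a protease inhibitor gene, had 274.9. Golm1 and Serpine2 are also among the 36 homeostatic genes, so the lists are not separate. Ang and Rnase4, which share their promoter, had 9 interactions and Col27a1, a collagen gene, had 5, fewer than Olfml3 and Sparc.

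By H3K4me3 and number of interactions together, measured as the sum of the absolute differences in log2 value and in log2 of interactions plus 1, the nearest of the 36 homeostatic genes, sought for the 4 genes with an interaction, was C1qc for Sall3 (0.03), P2ry13 for Slco2b1 (0.19), Aif1 for Sparc (0.33) and Entpd1 for Olfml3 (0.73). C1qc had 258.7 and 232.0 and 1 interaction, and P2ry13 had 133.2 and 148.4 and 3 interactions. Aif1 had 284.4 and 235.0 and 11 interactions, and Entpd1 had 180.7 and 210.3 and 16.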

How the data were processed

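Wild-type microglia were sorted for H3K4me3 ChIP-seq, its input and PLAC-seq (2 libraries each), and samples were grouped as labeled. The members and gene lists were chosen with earlier results of these data known. The authors called H3K4me3 peaks in each library apart, and the submitters' processing notes list Bowtie2, HOMER and the build mm10. The deposited signal is the tags of a peak per 10 M tags of the library, the deposited tag count is a whole number, and peaks were 184 and 188 bp wide. Input signal and fold (ratio) over input were deposited too, with folds of at least 4.09 and 4.00. In the study's methods the template peaks of the interaction caller came from the ENCODE pipeline, so the deposited ones may be other calls. For PLAC-seq the authors ran MAPS on both libraries in bins of 5 kb and deposited the read pair count, the expected count and a false discovery rate (an adjusted p-value) of each interaction. Kept interactions had at least 7 pairs, a ratio to expected of at least 2.00 and a false discovery rate of up to 0.0100.

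TSSs were those of protein-coding transcripts in the GENCODE M21 basic annotation of GRCm38. The H3K4me3 value of a gene was that of its tallest peak within 1 kb of a TSS, and a gene was marked when both replicates had one. Library depths of 12.8 and 13.4 M tags were recovered from tag counts over values. Exact Poisson intervals of 95% cover counting error only. Replicates were compared by exact binomial tests (scipy 1.17.1) with Benjamini-Hochberg adjustment at 0.05. The test was tried on simulated counts with counting error only. That trial covers neither further spread between libraries nor the separate choice of peaks. No test compared conditions, since all libraries used are wild type. Promoter sequences came from RefSeq. Besides the 7 genes, those named share a bin with them, lie in a partner bin, lead a list or are nearest in value. Others are said to have been looked up afterwards, and 1 gene that this rule names is not reported here. Alternatives were other windows, a minimum value of 10, sums of peaks, all transcripts, other limits on interactions, neighboring bins and leaving out a replicate. Hi-C was not analysed here.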

Additional observations from a re-analysis of the deposited data

How the results depend on the processing

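The number of marked genes among the 7 was 6 and moved with the window around the TSS: it was 2 with 250 bp, 1 when the peak had to cover a TSS, 7 with 2 kb, 5, without Crybb1, when peaks needed at least 10 tags per 10 M, and between 6 and 7 when a replicate was left out. Their median value was 192.1, and it was 67.48 with 250 bp, 160.8 with 2 kb, 13.05 for a covered TSS, 249.5 for the sum of all peaks within 1 kb, and between 163.6 and 210.0 when a replicate was left out. At 250 bp the 2 genes left were Crybb1 and Olfml3, the latter with another peak and a mean of 121.9 in place of 153.9. The 28 interactions became 29 with the TSSs of all transcripts and 41 with neighboring bins included. They became 14 with the false discovery rate limited to 0.0001, 18 with at least 20 read pairs, and 4 with 1 interaction per cluster. These 4 are fewer than the clusters that the 28 belong to, as those of Sparc and of Slco2b1 lie in more than 1 cluster each. Genes with an interaction were 4, and 3, without Sall3, at the stricter false discovery rate, or 5, with Crybb1, when neighboring bins were included. With bins that the authors annotate with a gene, an alternative chosen after seeing the data, the total was 36, Slco2b1 had 10 interactions and Sall3 had 2. The count of genes whose replicates differed, 1 (Olfml3), was 0 for the sum of peaks, 0 with depth and peak width as exposure (adjusted p of 0.0578 in the exact test) and 0 at an adjusted p of at most 0.01.

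No paired analysis was possible because the only test compares the 2 H3K4me3 replicates of 1 group with each other, and the input libraries carry other replicate numbers. Interactions have no replicates, peaks were listed only where called, and the PLAC-seq depth is unknown, so a gene without a called interaction is not shown to lack contacts.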
